A study of Mus musculus with 16 samples.

Results

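The Z-disc is the protein lattice at the ends of each sarcomere, and 10 genes for LIM, myozenin, alpha-actinin and ankyrin-repeat proteins of this lattice and its neighbourhood are described here: Fhl1, Fhl3, Csrp3, Myoz1, Myoz2, Actn2, Actn3, Ankrd2, Ldb3 and Pdlim1. They were taken by symbol from a table of 23440 genes, and all 10 were present. Fhl1 was selected on its RPKM, because its level was higher with training in wild-type mice and not in knockout mice, so its values are a description and carry no test. The other 9 were listed by name as genes of the same structure, with earlier results of these data known. RNA was measured by poly(A) sequencing of the gastrocnemius, the large and mainly fast-fibred calf muscle, in 16 male C57Bl6/J mice aged 20 weeks. There were 4 groups of 4 mice: Il13-/- (KO) mice after 5 weeks of daily treadmill endurance running, untrained Il13-/- mice, wild-type (WT) mice after the same 5 weeks, and untrained WT mice. The Il13-/- animals lack interleukin-13, a type 2 cytokine, and the labels name no promoter or tissue that restricts the deletion. Each library was labelled with its own mouse.

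Alpha-actinins cross-link the actin filaments of adjoining sarcomeres at the Z-disc. Myozenins, also called calsarcins, and PDZ-LIM proteins bind alpha-actinin there, and myozenins also bind the phosphatase calcineurin, which acts in fibre-type and load signalling. LIM-only proteins and muscle ankyrin-repeat proteins sit at the Z-disc or on the titin filament beside it, shuttle to the nucleus, and are known for responding to stretch and load. Several of these genes come in fast and slow forms: Actn3 and Myoz1 are the forms of fast glycolytic fibres, whereas Actn2 and Myoz2 are the forms shared with or preferred by oxidative and slow fibres and the heart.

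Values are RPKM, reads scaled to the length of the gene and the depth of the library. The scaling allows for length and depth only. It does not allow for other differences between libraries, such as the share of reads in listed genes given below. Library totals solved from the RPKM steps were 16307025 to 20074677 reads, and the least covered of the 10 genes, Pdlim1, had 459 to 932 reads per library. Il13 itself had at most 2 reads, found in 4 of 8 KO libraries and in 0 of 8 WT libraries, under the floor of 3 reads, so it does not check the genotype labels. The 12 skeletal muscle markers summed to 91442 to 120478 RPKM per library. All 4 untrained WT libraries, at 108814 to 120478, lay above every other library. Cardiac markers were low apart from Actc1, with Nppb at 0 in all 16. One library stood apart for the genes described here: WT trained library 1 had the highest value of its group for 10 of 10 genes. It also had 83.5% of its total in listed genes, against 76.0% to 78.8% in the other 3 WT trained libraries. Most trained libraries of both genotypes had a lower share than untrained ones, with overlap: it was 75.6% to 78.3% in KO trained against 77.2% to 81.7% in untrained KO mice, and those 3 WT trained libraries lay below the 79.9% to 83.3% of untrained WT mice while library 1 lay above it. The part of this share in the levels was not tested. Slow-fibre markers varied between mice of 1 group, and their summed RPKM was 862 in KO trained library 3 and 884 in KO untrained library 3, against 271 to 579 in the other 6 KO libraries. Tests were limma fits of log2(RPKM + 0.1) over the 10171 genes that reached 1 RPKM in 4 or more libraries, two-sided, with Benjamini-Hochberg adjustment at 0.05. All 10 genes passed this filter in every group. Because these are bulk samples, fewer fibres of a type and less RNA per fibre cannot be told apart. In the sentences that follow, the 4 values of a group are given in the order of library numbers 1 to 4.

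Actn3 and Myoz1 were among the most abundant transcripts of the muscle, ranking 17 and 24 of all genes by mean RPKM, and Pdlim1 was the least abundant of the 10. Between them, in descending order of RPKM, lay Ldb3, Actn2, Fhl1, Fhl3, Ankrd2, Csrp3 and Myoz2. WT trained mice had the highest group mean for 7 genes (Fhl1, Csrp3, Myoz2, Actn2, Ankrd2, Ldb3 and Pdlim1) and untrained WT mice for the other 3 (Fhl3, Myoz1 and Actn3). KO trained mice had the lowest mean for 8 of the 10. The exceptions were Actn3, lowest in WT trained, and Pdlim1, lowest in untrained WT.

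Fhl1 encodes a LIM-only protein abundant in striated muscle, which binds titin and is mutated in several human myopathies. Its gene lies on chromosome X, at chrX:56731787-56793346 on the plus strand of mm10. Fhl1 had 209, 182, 255 and 188 RPKM in KO trained mice, 238, 224, 256 and 184 in untrained KO mice, 364, 317, 330.0 and 339 in WT trained mice and 236, 222, 176 and 215 in untrained WT mice. All 4 WT trained libraries lay above all 12 others, and the other 3 groups overlapped. The means were 208 ± 32.96 RPKM in KO trained, 226 ± 30.9 in untrained KO, 337 ± 19.8 in WT trained and 213 ± 25.7 in untrained WT mice (SD, n = 4 each). The WT trained level was 1.59-fold that of untrained WT mice, and the KO trained level 0.923-fold that of untrained KO mice. Since these values selected the gene, no test is given. The coefficient of variation was 15.8% in KO trained, 13.7% in untrained KO, 5.85% in WT trained and 12.1% in untrained WT mice. These are the values that selected the gene, so their spread is only a description too.

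**Figure D1:**
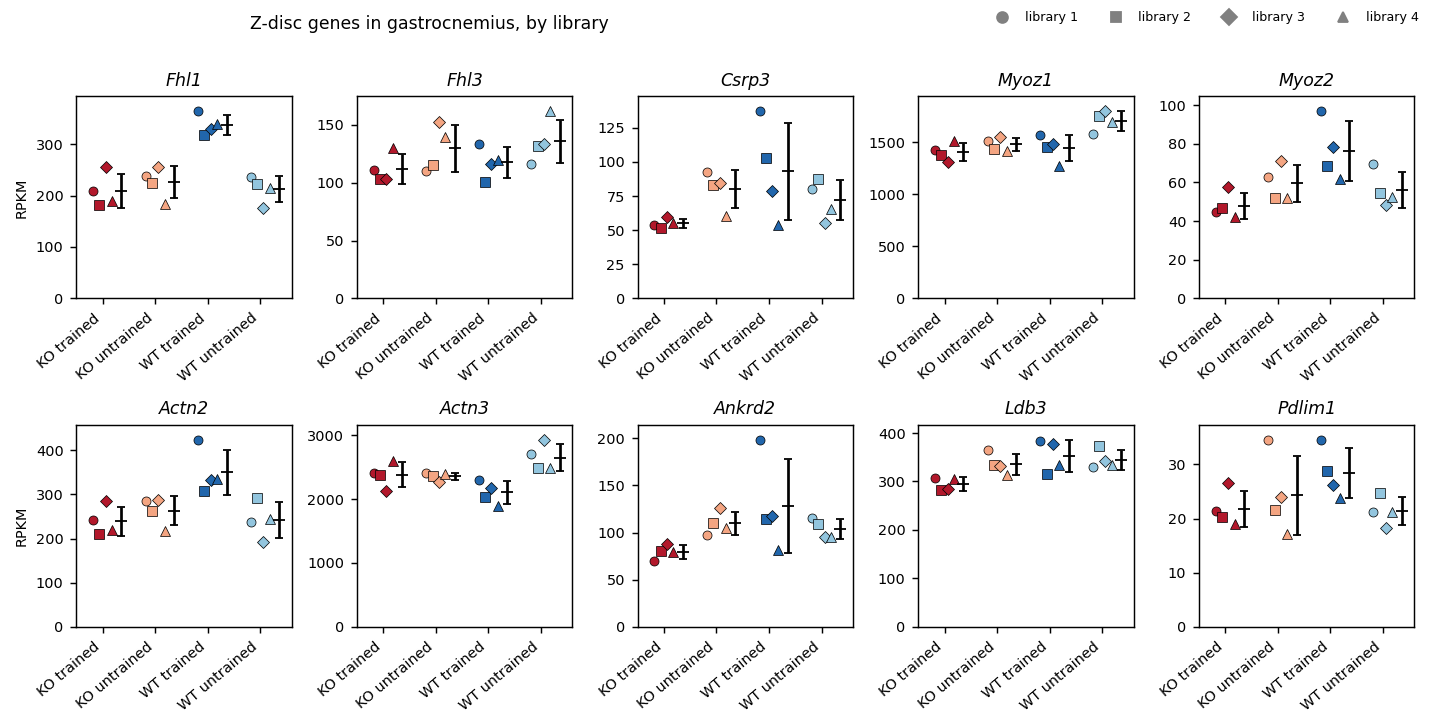
RPKM of each of the 10 genes in the 16 libraries, with KO trained, KO untrained, WT trained and WT untrained mice from left to right; each marker is 1 library, its shape is the library number, and the bar beside it is the mean ± SD of 4. The WT trained markers stand above all others for Fhl1 and Actn2, the WT untrained markers stand above all others for Myoz1, and the circle of WT trained library 1 is the highest of its group in every panel.

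Actn2 encodes the alpha-actinin present in all striated fibres and the heart (chr13:12269427-12340732, minus strand, mm10). It had 241, 210.0, 284 and 219 RPKM in KO trained mice, 285, 263, 287 and 216 in untrained KO mice, 424, 309, 333 and 335 in WT trained mice and 237, 293, 193 and 244 in untrained WT mice. As for Fhl1, all 4 WT trained libraries lay above the 12 others, and the remaining groups overlapped. Actn3 encodes the alpha-actinin restricted to fast fibres (chr19:4861216-4877909, minus strand, mm10). It had 2410.1, 2376, 2122 and 2603 RPKM in KO trained mice, 2405, 2363, 2273 and 2385 in untrained KO mice, 2301, 2033, 2179 and 1896 in WT trained mice and 2705, 2479.7, 2928 and 2486 in untrained WT mice. Untrained WT mice were the highest, above both untrained KO and WT trained mice without overlap, and KO trained mice spanned the range between. The means for Actn2 were 239 ± 33.1 RPKM in KO trained, 263 ± 33.1 in untrained KO, 350.2 ± 50.6 in WT trained and 242 ± 41.1 in untrained WT mice. Those for Actn3 were 2378 ± 197 RPKM in KO trained, 2357 ± 58.4 in untrained KO, 2102 ± 176 in WT trained and 2649.8 ± 213 in untrained WT mice (SD, n = 4 each).

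Set against each other within a library, the shared alpha-actinin made up a larger part beside the fast one in WT trained mice than in any other group. Actn2 RPKM was 10.2 ± 2.26% of Actn3 RPKM in KO trained, 11.2 ± 1.54% in untrained KO, 16.6 ± 1.66% in WT trained and 9.24 ± 2.18% in untrained WT mice (SD, n = 4 each). The 4 WT trained ratios, 15.2% to 18.4%, lay above the 12 others, of which KO trained library 3 was the highest at 13.4%. A ratio of this kind does not say which of the pair differed, and it was formed with these results known, so no test is given for it.

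Myoz1 is the myozenin of fast fibres (chr14:20649102-20656540, minus strand, mm10). It had 1426, 1374, 1305 and 1513 RPKM in KO trained mice, 1512, 1432, 1550.0 and 1418 in untrained KO mice, 1569, 1451, 1480.2 and 1273 in WT trained mice and 1577, 1746, 1795 and 1689 in untrained WT mice. All 4 untrained WT libraries lay above the 12 others. Myoz2 is the myozenin of slow fibres and the heart (chr3:123006206-123034987, minus strand, mm10). It had 44.6, 46.5, 57.4 and 42.3 RPKM in KO trained mice, 63.0, 51.9, 71.1 and 51.9 in untrained KO mice, 96.8, 68.4, 78.3 and 61.6 in WT trained mice and 69.5, 54.8, 48.3 and 52.4 in untrained WT mice. KO trained libraries were all below WT trained libraries, while each group overlapped its neighbours in the order of means. In both KO groups the highest Myoz2 value was that of library 3, the one with the high slow-fibre sum. Myoz2 RPKM was 3.43 ± 0.692% of Myoz1 RPKM in KO trained, 4.01 ± 0.458% in untrained KO, 5.25 ± 0.66% in WT trained and 3.33 ± 0.742% in untrained WT mice (SD, n = 4 each), and the 4 WT trained ratios were again the highest of the 16.

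Fhl1, Actn2 and Myoz2 all had their highest group mean in WT trained mice, as did Csrp3, Ankrd2, Ldb3 and Pdlim1. For the first 3, the 250 bases before an annotated start are shown, because only their first windows held CTANNNNTA. This is a loose form of the core of the motif of MEF2, a transcription factor of striated muscle genes. The first windows of Csrp3, Ankrd2, Ldb3 and Pdlim1 held no match. The windows are from RefSeq on GRCm38.p6, the build also named mm10, and were chosen with the levels and the matches known. Of the 10 genes, 8 had a window. The fast forms Actn3 and Myoz1 had none and were not searched. Both strands were searched for CTANNNNTA (called the core below, with any letter at each N) and for CANNTG (the E-box bound by myogenic factors), counting overlapping matches. The middle letters of the core were not held to those of the MEF2 motif. The core was in the first window of 3 of these 8 genes, and in 19.0% of 32851 windows of all genes, later starts included. An E-box was in 5 of the 8, and in 66.2% of all windows. Capitals mark each stretch covered by these loose cores on either strand, and none of them overlaps an E-box. The last stretch of Myoz2 holds 2 overlapping cores. A match describes the letters and was not tested as a site, and later annotated starts differ: the later window of Fhl1 holds no core, that of Csrp3 holds 1 and that of Ldb3 holds 2. The windows are chrX:56779433-56779682 (plus strand) for Fhl1, chr13:12340733-12340982 (minus strand) for Actn2 and chr3:123034988-123035237 (minus strand) for Myoz2. The Fhl1 window precedes a start inside the counted gene, which begins at chrX:56731787, and no window lay before that first base.
Fhl1: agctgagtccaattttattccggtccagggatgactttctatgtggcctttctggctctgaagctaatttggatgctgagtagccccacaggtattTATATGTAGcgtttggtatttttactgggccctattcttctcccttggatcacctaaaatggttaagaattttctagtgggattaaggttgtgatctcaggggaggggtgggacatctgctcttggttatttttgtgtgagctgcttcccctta
Actn2: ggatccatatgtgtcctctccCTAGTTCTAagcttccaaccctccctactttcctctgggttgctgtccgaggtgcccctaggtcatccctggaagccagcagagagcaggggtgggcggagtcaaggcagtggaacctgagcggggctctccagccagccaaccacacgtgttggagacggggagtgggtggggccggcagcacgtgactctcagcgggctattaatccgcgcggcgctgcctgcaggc
Myoz2: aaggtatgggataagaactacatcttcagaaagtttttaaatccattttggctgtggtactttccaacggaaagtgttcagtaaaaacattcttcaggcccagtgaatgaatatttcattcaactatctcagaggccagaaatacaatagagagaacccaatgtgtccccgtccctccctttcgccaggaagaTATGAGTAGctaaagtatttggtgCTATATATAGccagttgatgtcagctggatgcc

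Csrp3 encodes muscle LIM protein, a stretch-responsive cofactor at the Z-disc and in the nucleus (chr7:48830398-48848051, minus strand, mm10). It had 53.5, 51.5, 59.5 and 55.6 RPKM in KO trained mice, 93.0, 83.4, 84.5 and 60.6 in untrained KO mice, 137, 103, 78.4 and 53.9 in WT trained mice and 79.9, 87.9, 55.5 and 65.2 in untrained WT mice. KO trained mice were uniformly low and did not overlap untrained KO mice, whereas WT trained mice spread 2.54-fold from library 4 to library 1. Ankrd2, a muscle ankyrin-repeat protein that binds titin and is known for its induction by stretch (chr19:42036038-42045110, plus strand, mm10), gave a like picture. It had 70.0, 80.0, 87.7 and 79.6 RPKM in KO trained mice, 97.3, 110.3, 127 and 105 in untrained KO mice, 199, 115, 117.4 and 82.0 in WT trained mice and 116, 109, 94.99 and 95.2 in untrained WT mice. KO trained mice lay below both untrained groups without overlap, and WT trained mice spread 2.42-fold, again with library 1 highest and library 4 lowest. The coefficients of variation in WT trained mice, 38.1% for Csrp3 and 38.7% for Ankrd2, were the highest of the 40 combinations of gene and group. Fhl1, in values that were part of its selection, varied by 5.85% in the same 4 mice.

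The PDZ-LIM proteins bind alpha-actinin through their PDZ domain. Ldb3, also known as ZASP or Cypher (chr14:34526699-34588681, minus strand, mm10), had 308, 282, 284 and 306 RPKM in KO trained mice, 365, 334, 331 and 312 in untrained KO mice, 384, 316, 378 and 335 in WT trained mice and 329, 374, 342 and 333 in untrained WT mice. All 4 KO trained libraries lay below the 12 others, and the other groups overlapped. Pdlim1, also known as CLP36 (chr19:40222239-40271616, minus strand, mm10), had 21.4, 20.2, 26.6 and 18.9 RPKM in KO trained mice, 34.4, 21.6, 23.9 and 17.2 in untrained KO mice, 34.6, 28.8, 26.3 and 23.9 in WT trained mice and 21.2, 24.8, 18.2 and 21.3 in untrained WT mice. Every pair of groups next to each other in the order of its means overlapped, and untrained KO library 1 was close to the highest WT trained library. Fhl3, a LIM-only relative of Fhl1 (chr4:124700699-124708611, plus strand, mm10), had 111, 103, 103 and 129.8 RPKM in KO trained mice, 110.3, 116, 153 and 139 in untrained KO mice, 133, 100.7, 116 and 119.5 in WT trained mice and 116, 131, 133 and 161 in untrained WT mice. Its groups overlapped throughout, with means of 112 ± 12.8 RPKM in KO trained, 129 ± 19.9 in untrained KO, 117.5 ± 13.4 in WT trained and 136 ± 18.8 in untrained WT mice (SD, n = 4 each). None of the 10 genes has an exon that overlaps another gene in the GENCODE M21 annotation.

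The first comparison asked how training went with transcript levels in WT mice. The shared and slow forms were higher and the fast forms lower in trained mice, by amounts that did not pass the test. In log2(RPKM + 0.1), the difference was 0.54 for Actn2 (SE 0.13, limma adjusted p = 0.0789), 0.43 for Myoz2 (adjusted p = 0.233), -0.33 for Actn3 (SE 0.073, adjusted p = 0.0547) and -0.24 for Myoz1 (adjusted p = 0.128). Pdlim1 stood at 0.40, Csrp3 at 0.31, Ankrd2 at 0.24, Ldb3 at 0.032 and Fhl3 at -0.20, with adjusted p between 0.375 and 0.896. Of the 9 tested genes limma called 0, against 0.187% of all 10171 genes, and 5 had an unadjusted p under 0.05, against 11.8% of all genes. Ranges of the 4 trained and 4 untrained mice did not overlap for 3 of the 9, against 6.37% of all genes. Actn2 was the 1 above, as were 3.76% of all genes, and Actn3 and Myoz1 were the 2 below, as were 2.62%. The median of the 9 was 0.24 and that of all genes 0.0080.

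Whether Actn2, Actn3 and Myoz1 passed depended on the processing. Actn2 and Myoz1 passed with quantile normalization, with adjusted p of 0.0114 and 0.0341. Those and Actn3 passed with weights per library. With voom on the recovered reads Actn3 passed alone of the 9 (adjusted p = 0.041), as it did among genes of at least 5 RPKM (adjusted p = 0.0411). Leaving out WT trained library 1 raised the number of genes called over the whole table to 272, against 19 with all libraries and 0 without WT trained library 3, WT trained library 4 or untrained WT library 3. Without WT trained library 1 Actn3 and Myoz1 passed at -0.38 and -0.28. Actn3 also passed without KO trained library 3, and with both KO libraries numbered 3 left out, through the shared estimate of spread. WT trained library 1 carried most of the difference of the stretch-responsive genes: without it Ankrd2 stood at 0.0021 and Csrp3 at 0.093, while Actn2 stood at 0.45. Ldb3, near 0 in any case, was below 0 without WT trained library 1 or 3.

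In KO mice the same training went with values at or below those of untrained mice, none of which passed the test. The 2 stretch-responsive genes had the lowest values, with Csrp3 at -0.53 (SE 0.23, limma adjusted p = 0.325) and Ankrd2 at -0.47 (SE 0.19, adjusted p = 0.296). Myoz2 stood at -0.31, Fhl3 at -0.21, Ldb3 at -0.19, Actn2 at -0.14, Pdlim1 at -0.12, Myoz1 at -0.075 and Actn3 at 0.0095. Limma called 0 of the 9, as it did 0.0% of all genes, and voom also called 0 of the 9. At an unadjusted p under 0.05 there were 4 (Csrp3, Ankrd2, Ldb3 and Myoz2), against 13.7% of all genes. Csrp3, Ankrd2 and Ldb3 were lower in trained mice with no overlap, against 5.43% of all genes lower and 9.43% without overlap in either direction. The median of the 9 was -0.19 and that of all genes -0.056. Pdlim1 was above 0, at 0.06, without untrained KO library 1, and Actn3 was below 0 without KO trained library 4 or untrained KO library 3.

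**Figure D2:**
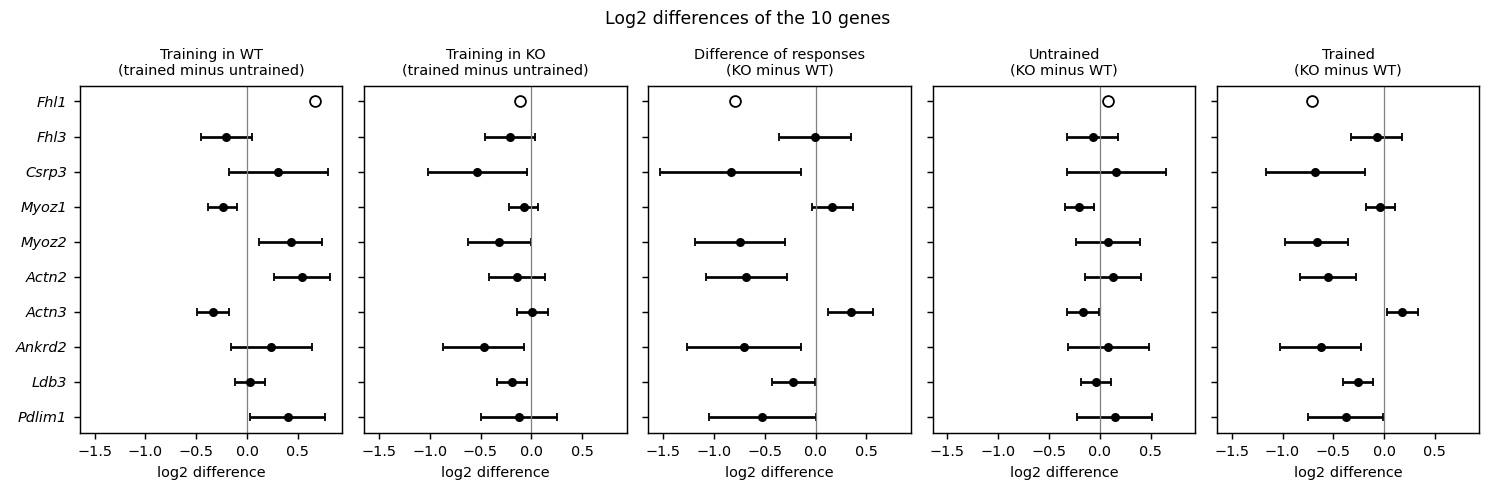
Log2 differences of the 10 genes in the 5 comparisons, 1 panel each, with 95% confidence intervals from the limma fit that are not adjusted for the number of genes; the open circle is Fhl1, which has no interval because it was chosen for this pattern. In WT mice Actn2, Myoz2 and Pdlim1 lie to the right of 0 and Actn3 and Myoz1 to the left, whereas in KO mice the points lie at or left of 0.

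The difference between these responses, KO minus WT, was tested directly. It was -0.84 for Csrp3, -0.75 for Myoz2, -0.70 for Ankrd2, -0.68 for Actn2, -0.52 for Pdlim1 and -0.22 for Ldb3. With 1 library left out, Csrp3 ranged from -1.07 to -0.62 and Ankrd2 from -0.89 to -0.47. Fast forms had the opposite sign, with 0.34 for Actn3 and 0.17 for Myoz1, and Fhl3 was at -0.0056. For Fhl1 the value was -0.79, which is the pattern that selected it. Limma called 0 of the 9, with 0.0% of all genes called, and the smallest adjusted p was 0.526. Voom called 0 as well. At an unadjusted p under 0.05 there were 7 of the 9, all but Fhl3 and Myoz1, against 8.4% of all genes, and the median of the 9 was -0.52 against -0.050 for all genes. The 95% intervals, not adjusted for the number of genes, ran from -1.08 to -0.29 for Actn2, from -1.19 to -0.31 for Myoz2 and from 0.13 to 0.56 for Actn3. Fhl3 was above 0 under quantile normalization (0.054), weights per library (0.087), with both KO libraries numbered 3 left out (0.11) and in 9 of the 16 fits without 1 library. The 9 were chosen with these results in view, so the share at an unadjusted p is a description.

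Among untrained mice, the ranges of KO and WT mice overlapped for the shared, slow and stretch-responsive genes. The difference, KO minus WT, was 0.13 for Actn2 (SE 0.13), 0.081 for Myoz2 (SE 0.15) and 0.16 for Csrp3 (SE 0.23). It was 0.081 for Ankrd2 (SE 0.19) and 0.15 for Pdlim1 (SE 0.17). Ldb3 stood at -0.038 and Fhl3 at -0.069. The fast forms were the ones without overlap, with Myoz1 at -0.20 (SE 0.067) and Actn3 at -0.17 (SE 0.073), both lower in KO mice, and limma adjusted p was 0.78 for each. These were 2 of the 9 tested genes, against 2.37% of all genes lower and 3.95% without overlap in either direction. Limma called 0 of the 9 and 0.0492% of all genes, voom called 0 of the 9, and 2 of the 9 had an unadjusted p under 0.05 against 6.2% of all genes. The small values moved across 0 when 1 library was left out: Pdlim1 was at -0.037 without untrained KO library 1, Myoz2 at -0.0093 without untrained KO library 3, Ldb3 at 0.0013 without untrained WT library 2, and Fhl3 at 0.018 without untrained WT library 4 and 0.0037 without untrained KO library 1. Under quantile normalization Ldb3 was at 0.062, and Myoz2 was also below 0 with both KO libraries numbered 3 left out.

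Among trained mice, KO mice were lower than WT mice in 8 of the 9 tested genes, by amounts that did not pass the test. Csrp3 stood at -0.68, Myoz2 at -0.66 (SE 0.15, limma adjusted p = 0.151), Ankrd2 at -0.62, Actn2 at -0.55 (SE 0.13, adjusted p = 0.174), Pdlim1 at -0.38 and Ldb3 at -0.26 (SE 0.07, adjusted p = 0.2). Actn3 was at 0.18, and Fhl3 at -0.075 and Myoz1 at -0.037 were near 0; under quantile normalization these last 2 were at 0.025 and 0.089, and Myoz1 was at 0.004 without WT trained library 1. Limma called 0 of the 9 and 0.0885% of all genes, and voom called 0 of the 9. At an unadjusted p under 0.05 there were 7 of the 9, against 13.9% of all genes. Myoz2, Actn2 and Ldb3 were lower in KO mice with no overlap, against 5.86% of all genes lower and 8.48% without overlap in either direction. The median of the 9 was -0.38 and that of all genes -0.054. With both KO libraries numbered 3 left out, a choice made after seeing their slow-fibre sums, Myoz2 was called at -0.76 (adjusted p = 0.0415). With 1 library left out, Csrp3 ranged from -0.91 to -0.46 and Ankrd2 from -0.81 to -0.39. This comparison shares its libraries with both training comparisons.

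Fibre-type markers varied along with these genes. The summed RPKM of 12 slow-fibre genes, led by Myl2 and Myl3, was 415, 332, 862 and 271 in KO trained, 579, 316, 884 and 426 in untrained KO, 946, 734, 883 and 649.6 in WT trained and 561, 271, 385 and 297 in untrained WT libraries. WT trained mice were all above untrained WT mice, and KO trained library 3 and untrained KO library 3 reached the WT trained range. Of the 12, 10 were tested, and limma called 0 of them in each comparison, with 9 at an unadjusted p under 0.05 for training in WT, 0 for training in KO, 8 for the difference of responses, 0 for KO against WT untrained and 4 for KO against WT trained. Over all genes the share at an unadjusted p under 0.05 was 11.8%, 13.7%, 8.4%, 6.2% and 13.9%, in the same order. The median log2 difference of the 10 slow-fibre genes was 1.20 for training in WT, -0.24 for training in KO and -1.52 for the difference of responses. It was 0.56 for KO against WT untrained and -0.98 for KO against WT trained. The type 2A and 2X myosins Myh2 and Myh1 summed to 837 to 1314 RPKM in KO trained, 786 to 1185 in untrained KO, 1237 to 1537 in WT trained and 701 to 1061 in untrained WT mice. The 10 fast-fibre genes, led by the fast troponins Tnnt3 and Tnni2, summed to 71279 to 77888 RPKM in KO trained, 78773 to 80365 in untrained KO, 70964 to 78074 in WT trained and 85499.9 to 94203 in untrained WT mice. All 4 untrained WT sums lay above the 12 others, as they did for Myoz1. For training in WT, limma called 1 of these 10 genes lower and 1 of the 2 myosins higher, and it called 0 of either in the other 4 comparisons. At an unadjusted p under 0.05, training in WT had 10 of the 10 fast-fibre genes, all lower, and KO against WT untrained had 7, all lower. The part of fibre make-up in the levels of the 10 genes was not tested.

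Tendon genes varied between the groups as well. The 12 tendon genes, led by Dcn and Fmod, summed to 258 to 479 RPKM in KO trained, 369 to 535 in untrained KO, 422 to 561 in WT trained and 364 to 384 in untrained WT mice, so that WT trained mice were above untrained WT mice without overlap. Their 11 tested genes had a median of 0.75 for training in WT and -0.30 for training in KO, with 0 called by limma in either. At an unadjusted p under 0.05 there were 8 for training in WT, all higher, against 11.8% of all genes. There was 1 for training in KO, which was lower, against 13.7% of all genes. None of the 12 was at 0 in all libraries, and their part in the levels of the 10 genes was not tested. Adipocyte markers (8 of 8) summed to 401 to 674 RPKM in KO trained, 492 to 770.1 in untrained KO, 438 to 554 in WT trained and 399 to 525 in untrained WT mice, and all 4 groups overlapped. Smooth muscle, endothelial, macrophage, Schwann cell, and satellite cell and regeneration markers summed to no more than 139 RPKM in any library, and cardiac markers to no more than 163, nearly all from Actc1.

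**Figure D3:**
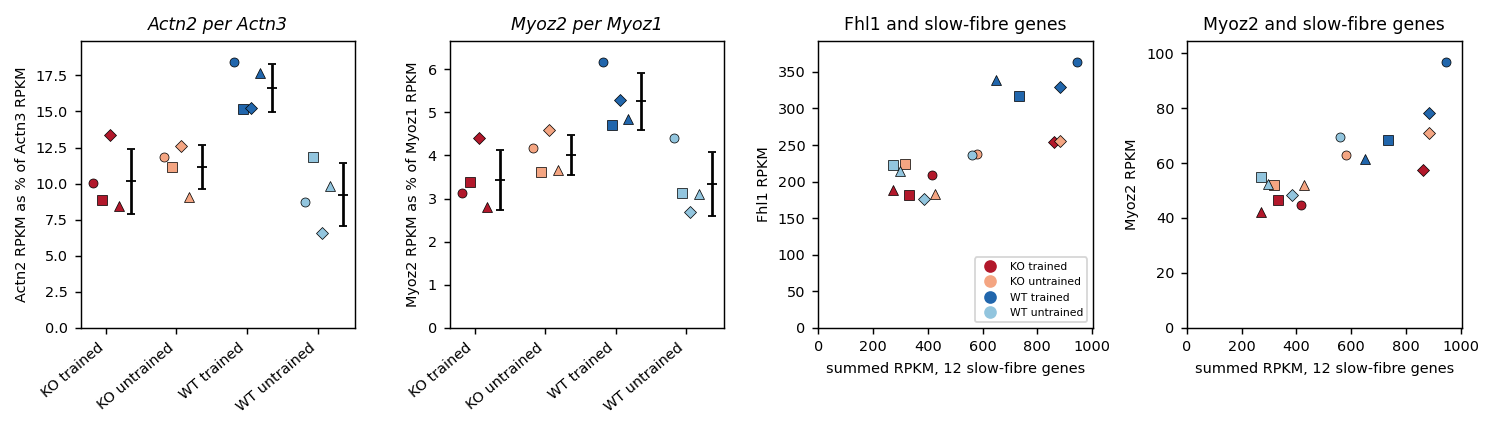
Left pair of panels: RPKM of Actn2 as a percent of Actn3, and of Myoz2 as a percent of Myoz1, in each library of the 4 groups, with mean ± SD of 4; right pair: RPKM of Fhl1 and of Myoz2 against the summed RPKM of 12 slow-fibre genes, 1 marker per library, with colours for groups and shapes for library numbers as in the plot of values. The 4 WT trained ratios are the highest of the 16 in both left panels, and the diamonds of KO trained and KO untrained library 3 sit at slow-fibre sums of 862 and 884.

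Across the 16 libraries 6 of the 10 genes went together and Myoz1 and Actn3 formed a pair, by Pearson correlation of log2(RPKM + 0.1), given here as a description since libraries share group, depth and fibre make-up. Among Fhl1, Actn2, Pdlim1, Myoz2, Csrp3 and Ankrd2, r ran from 0.51 to 0.94 over the 15 pairs. After each group's mean was subtracted it ran from 0.35 to 0.86. These 6 were grouped with the values known, and the pairs of Fhl1 include the group means that selected it. The closest pair was Fhl1 and Actn2 at 0.94, and 0.86 after each group's mean was subtracted. Csrp3 and Ankrd2 gave 0.88, and 0.79 after subtraction. Myoz1 and Actn3 gave 0.73, and 0.66 after subtraction. Between these sets the lowest value was -0.72, for Fhl1 and Actn3, and -0.46 after subtraction. The highest was 0.33, for Myoz1 and Ankrd2, and 0.48 after subtraction. Ldb3, left outside both sets, gave 0.46 (Fhl1) to 0.66 (Csrp3) with the 6 genes and 0.53 with Myoz1. Against the fibre-type sums, Myoz2 went with the slow genes (0.82, and 0.80 after subtraction) and Fhl1 somewhat less (0.78, and 0.65), whereas Actn2 was closer to the type 2A myosin Myh2 (0.91, and 0.78) than to the slow sum (0.68, and 0.38). Fhl1 and Myh2 gave 0.93, and 0.82 after subtraction. Myoz1 and Actn3 went with the fast-fibre sum at 0.92 and 0.87. Csrp3 was at 0.45 with the slow sum and 0.05 with the fast sum, beside 0.88 with Ankrd2 and 0.79 with Myoz2.

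**Figure D4:**
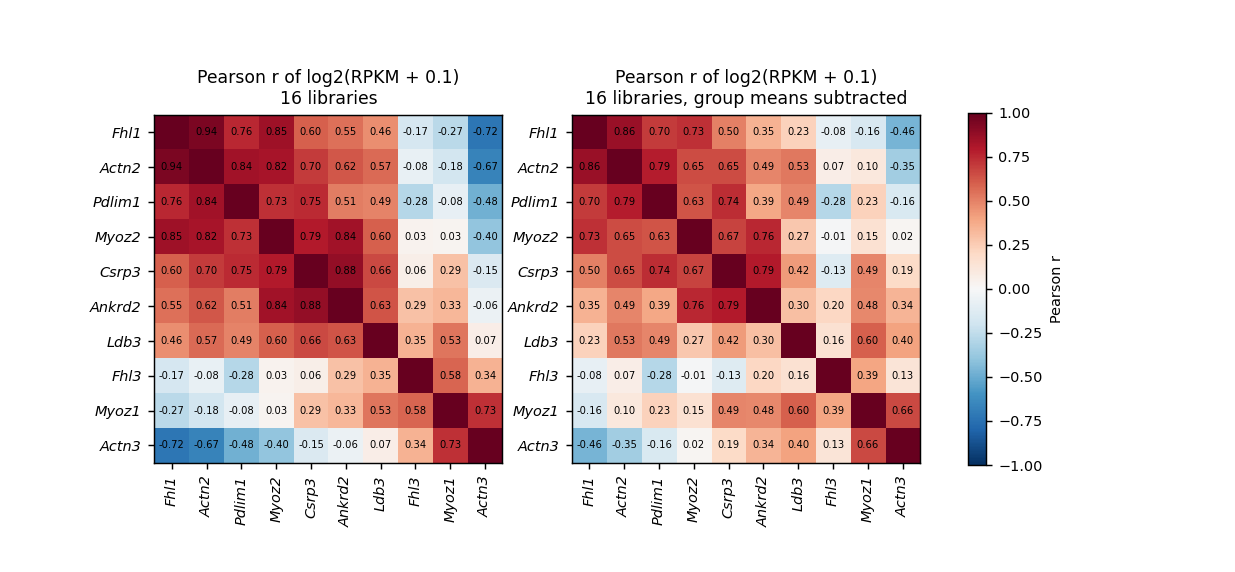
Pearson r between the 10 genes over 16 libraries, before (left) and after (right) each group's mean was subtracted, with red for positive and blue for negative values. The block from Fhl1 to Ankrd2 is red in both panels, Fhl1 and Actn3 give -0.72 and -0.46, and Myoz1 and Actn3 give 0.73 and 0.66.

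The genes outside the set whose levels were most like each member's, over all tested genes and 16 libraries, were found by the same correlation. These r values include the differences between group means, so genes that share a group pattern rank high. For Fhl1 they were Bdh1 (ketone body dehydrogenase, r = 0.94), Myh2 (0.93), Myom3 (an M-band protein, 0.93), Atp1b1 (a sodium pump subunit, 0.93) and Ldhb (the lactate dehydrogenase subunit of oxidative fibres, 0.92). The group means that selected Fhl1 are part of this order. After each group's mean was subtracted, r was 0.83, 0.82, 0.81, 0.90 and 0.83, and these genes ranked 20, 27, 37, 2 and 26. For Actn2 they were Bdh1 (0.96), Myom3 (0.96), the orphan nuclear receptor Esrrb (0.96), the small heat shock protein Cryab (0.95) and Adamtsl5 (0.94). Myoz1 was closest to the creatine kinase Ckm (0.96), the fast troponins Tnni2 (0.95) and Tnnc2 (0.93), Dusp13 (0.93) and Adipor1 (0.93). Actn3 was closest to Anapc5 (0.89), Dcaf8 (0.88), the fast tropomyosin Tpm1 (0.87), Tnnt3 (0.86) and Jph1 (0.86). Myoz2 was closest to Wfs1 (0.91), Adprhl1 (0.90), Pla2g12a (0.90), Pcp4l1 (0.89) and Apol6 (0.88). Csrp3 had Prelid1 (0.90) and Msl1 (0.90) first, Ankrd2 had Rab11fip5 (0.88) and Fam102a (0.87), and Ldb3 had Usf2 (0.92) and Parp3 (0.91). Pdlim1 was closest to Ankrd33b (0.87) and Irgq (0.86), and Fhl3 to Abtb1 (0.85) and Hgs (0.83). After subtraction the gene named first ranked 2 for Actn2, 1 for Myoz1, 6 for Actn3, 33 for Myoz2 and 31 for Csrp3. It ranked 2 for Ankrd2, 6 for Ldb3, 29 for Pdlim1 and 12 for Fhl3.

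Other genes of these families, 24 in the table and 22 tested, showed no calls in any comparison, and 0 of 22 passed in limma for training in WT, with 6 at an unadjusted p under 0.05 (3 higher, 3 lower). The smallest p in that comparison was that of the PDZ-LIM gene Pdlim7, with 65.5 ± 7.20 RPKM in WT trained and 82.5 ± 6.03 in untrained WT mice (SD, n = 4 each), at -0.34 (adjusted p = 0.0562). Limch1 was at 0.17 and Pdlim3 at -0.26. For training in KO, 0 of 22 were called and 8 had an unadjusted p under 0.05, all lower, led by Pdlim7 (-0.27) and the non-muscle alpha-actinins Actn1 (-0.44) and Actn4 (-0.29). The list medians were 0.071 for training in WT and -0.21 in KO, beside 0.0080 and -0.056 for all genes. For the difference of responses 0 were called and 5 had an unadjusted p under 0.05, with Actn1 at -0.62, Actn4 at -0.33 and the LIM gene Lmcd1 at -0.50. In untrained mice 0 were called and 2 had an unadjusted p under 0.05, Actn1 (0.48) and Actn4 (0.20), with Pdlim7 next at -0.13. Over all genes the share at an unadjusted p under 0.05 was 11.8%, 13.7%, 8.4% and 6.2% in the comparisons so far, in the order given. In trained mice 0 were called and 3 had an unadjusted p under 0.05, against 13.9% of all genes. These 3 were Lmcd1 (-0.47), Pdlim5 (-0.17) and the ankyrin-repeat gene Ankrd23 (-0.33). The sign of the difference was negative for 21 of the 22 in that last comparison, with a median of -0.15 against -0.054 for all genes.

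Of 44 other genes of the Z-disc and of structures near it, such as thin-filament ends, the M-band and the triad, 43 were tested, and limma called 0 in each of the 5 comparisons. For training in WT, 14 had an unadjusted p under 0.05, 6 higher and 8 lower, and the first were the intermediate filament gene Synm (-0.21, adjusted p = 0.0621), the tropomodulin Tmod4 (-0.24) and the leiomodin Lmod2 (0.46). For training in KO, 12 did, 3 higher and 9 lower, with the co-chaperone Bag3 at -0.36, Synpo2 at -0.22 and the actin-capping gene Capza2 at 0.31. For the difference of responses, 11 did, led by Myot, the myotilin gene (-0.30), Bag3 (-0.51) and Cryab (-0.74). In untrained mice 3 did, with Tmod4 at -0.19, Jph1 at -0.12 and Capza1 at 0.19. Over all genes the share was 11.8%, 13.7%, 8.4% and 6.2% in these comparisons, in the order given. In trained mice 14 had an unadjusted p under 0.05, 4 higher and 10 lower, against 13.9% of all genes. The first were Cryab, Myot (-0.24) and the calcineurin subunit Ppp3cb (0.31), each with a limma adjusted p of 0.155. Cryab averaged 395 ± 50.6 RPKM in KO trained and 622 ± 105 in WT trained mice (SD, n = 4 each), a log2 difference of -0.65, close to the values of Actn2 and Myoz2 in that comparison. The median over the 43 genes was 0.0014 for training in WT, beside 0.0080 for all genes, and -0.095 for training in KO, beside -0.056. It was -0.099 for the difference of responses, beside -0.050 for all genes. It was -0.0039 for KO against WT untrained, beside 0.0038, and -0.073 for KO against WT trained, beside -0.054.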

How the data were processed

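Per the labels' protocols, poly(A) libraries that keep strand were made from the gastrocnemius of 16 mice. The authors deposited RPKM per gene, computed from trimmed reads per the file headers, and mm10 is named in the submitters' processing notes. Not given in the sources used here are the aligner, the counting program, the annotation and whether counting used strand. All 16 value columns were used and matched to mice by identifier.

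Whole reads were recovered from the RPKM steps: 100.0% of values above 0 came out whole within 0.01 read, for 17402 genes. As an added alternative, limma's voom on these reads, with the solved totals as library sizes, called 64 genes for training in WT. The main test was limma 3.58.1 (mean-variance trend, robust moderation with statmod 1.5.0, R 4.3.3) on log2(RPKM + 0.1), 1 mean per group over 16 libraries, for 10171 genes. Fold changes on this scale understate changes of low genes. Reads were recovered and plots drawn in Python 3.11.15, using matplotlib 3.10.9, pandas 2.3.3 and NumPy 2.4.6. The floor of 3 reads covers counting error only.

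The 10 genes and all lists were chosen with earlier results of these data known. Leaving out both KO libraries numbered 3, voom without TMM factors, and a replicate block with only the groups compared were chosen after seeing the data. All 10 genes are named in every comparison. From the lists of related genes and of other Z-disc and sarcomere genes, up to 3 genes with the smallest p are named where none passed. Marker lists are named by up to 2 genes with the highest mean, and up to 5 genes most like a member are given. Alternatives were quantile normalization, pseudocounts of 0.01 and 1, no filter, at least 5 RPKM, only the groups compared, a replicate block, library weights, voom and leaving out each library.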

Additional observations from a re-analysis of the deposited data

How the results depend on the processing

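Of 1310 values of the 9 tested genes and Fhl1 under 27 alternatives, 1269 were counted as unchanged. Among values of the tested genes, 13 came to pass the threshold and 28 had the opposite sign. For the tested genes, unchanged meant the same direction and the same side of the threshold. For Fhl1 it meant a move of less than 1 SD, whatever the sign. The number of genes called over the table for training in WT, 19, was 155 with quantile normalization, 39 with a pseudocount of 1, 3 with no filter, 58 at 5 RPKM, 35 with only the groups compared, 329 with library weights, 64 with voom and 84 with both KO libraries numbered 3 left out. Leaving out 1 library gave 0 (WT trained 3, WT trained 4 or WT untrained 3) to 272 (WT trained 1). Of the 9 genes, 2 were called with quantile normalization, 1 at 5 RPKM, 3 with weights, 1 with voom and 1 with both KO libraries numbered 3 left out, and 0 to 2 without 1 library. For training in KO, 0 genes were called, against 1 with no filter, 97 with weights and 0 to 106 without 1 library, the highest without WT trained 1. The difference of responses had 0, against 1 with quantile normalization, 1 with no filter, 4 without both KO libraries numbered 3 and 0 to 2 without 1 library. KO against WT untrained had 5, against 3 at 5 RPKM, 3 with only the groups compared, 3 without both KO libraries numbered 3 and 3 to 5 without 1 library. KO against WT trained had 9, against 3 with only the groups compared, 5 with a replicate block, 24 without both KO libraries numbered 3 (with 1 of the 9 genes, Myoz2) and 2 to 9 without 1 library. The causes were not tested.

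Values of opposite sign were small. Actn3 for training in KO was -0.0026 with weights. Fhl3 in the difference of responses was 0.054 with quantile normalization, 0.087 with weights and 0.11 without both KO libraries numbered 3. For KO against WT untrained, Myoz2 was -0.0093 without both KO libraries numbered 3 and Ldb3 0.062 with quantile normalization. For KO against WT trained, quantile normalization gave Fhl3 0.025 and Myoz1 0.089. Without 1 library, training in WT ranged from -0.0098 to 0.084 for Ldb3. Training in KO ranged from -0.035 to 0.063 for Actn3 and -0.27 to 0.060 for Pdlim1. The difference of responses ranged from -0.093 to 0.077 for Fhl3. KO against WT untrained ranged from -0.15 to 0.018 for Fhl3, -0.0093 to 0.19 for Myoz2, -0.079 to 0.0013 for Ldb3 and -0.037 to 0.30 for Pdlim1. Fhl1, whose sign was not counted above, ranged from -0.0033 to 0.18 in the same comparison. KO against WT trained ranged from -0.096 to 0.0040 for Myoz1.

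The labels do not say that a library number marks a shared litter or day, and not every same-numbered pair deviated together. The correlation of deviations from group means ran from -0.18 to 0.44 over 24 same-numbered pairs, with 6 over 0.1. Of these 6, 3 were among the 4 pairs of KO trained and untrained KO libraries (0.052 to 0.44), where 5 of 8 libraries went best with their own number. With the replicate block over all groups 16 genes were called for training in WT, and 0 of the 9 genes in any comparison. With the replicate block and only the groups compared, chosen after seeing the data, 37 genes were called for training in WT, with 0 of the 9. For training in KO, that fit called 7 genes, with 1 of the 9, Ankrd2 at -0.47 (limma adjusted p = 0.0234). Voom with TMM factors was not run; voom here used the solved totals. The precision is limited by 4 mice per group.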
